A study of Rattus norvegicus with 2 samples.

Results

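The genes described here encode 9 transcription factors of epidermal terminal differentiation: Tp63, Grhl1, Grhl2, Grhl3, Ovol1, Prdm1, Maf, Pou2f3 and Pou3f1. They were chosen by name, with earlier results of these data known. Each was measured by the single probe set that the platform annotation gives to that gene alone, so all 9 were found among 22093 named genes. Expression was profiled on GeneChip arrays in newborn rat epidermal keratinocytes, the cells that form the outer skin layer, grown in medium with 10% serum that was changed every 24 h. One array held cells given 5 µM all-trans retinoic acid (RA), the vitamin A metabolite that binds nuclear RA receptors, and RNA was taken at day 5. The other array held day 5 cells whose label names no RA, and it was read as the vehicle (dimethyl sulfoxide) control because the design names only RA and vehicle. The labels give no strain, sex or number of animals and do not say whether cultures were pooled.

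Each group holds 1 array. No difference below could therefore be set against the spread between cultures, and none has a test, an error or a p-value. Values are log2 signals as deposited, and every difference is the value with RA less the value without it. In such bulk RNA, fewer cells of a type and less RNA per cell cannot be told apart. A floor was set at 3.81, the middle of all deposited values, and a gene had to reach it on at least 1 array. The floor is no detection limit, since probe sets named as negative controls had medians of 4.47 with RA and 4.57 without RA. A gene is called lower or higher at 1 log2 unit or more, 2-fold on the deposited scale. That scale reaches 19.93, beyond the 16 of a 16-bit scanner image, so folds may be stretched.

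In the epidermis, keratinocytes leave the basal layer, stop dividing and move through the spinous and granular layers to become cornified cells. Tp63 keeps the stratified epithelial identity of the basal cells, and grainyhead-like, Ovol, Prdm1, Maf and POU proteins switch genes on or off as the cells move outward. RA is known to hold keratinocytes back from cornification and to favour a mucosal type of epithelium.

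Most of the transcription factor genes that could be read were lower with RA. Among the 7 members that reached the floor, 5 were lower by 2-fold or more and 0 were higher. The share lower by 2-fold or more over all 14274 genes at or above the floor was 5.63%, and the share higher was 7.88%. Because the members were chosen with earlier results known, their count beside these shares is no test of the set. The median difference of these 7 members was -2.28, beside -0.026 for all genes above the floor. The 5 lower genes were Grhl3, Ovol1, Tp63, Maf and Grhl1. Prdm1 and Grhl2 were lower by less than 2-fold. Pou2f3 and Pou3f1 lay under the floor on both arrays.

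**Figure D1:**
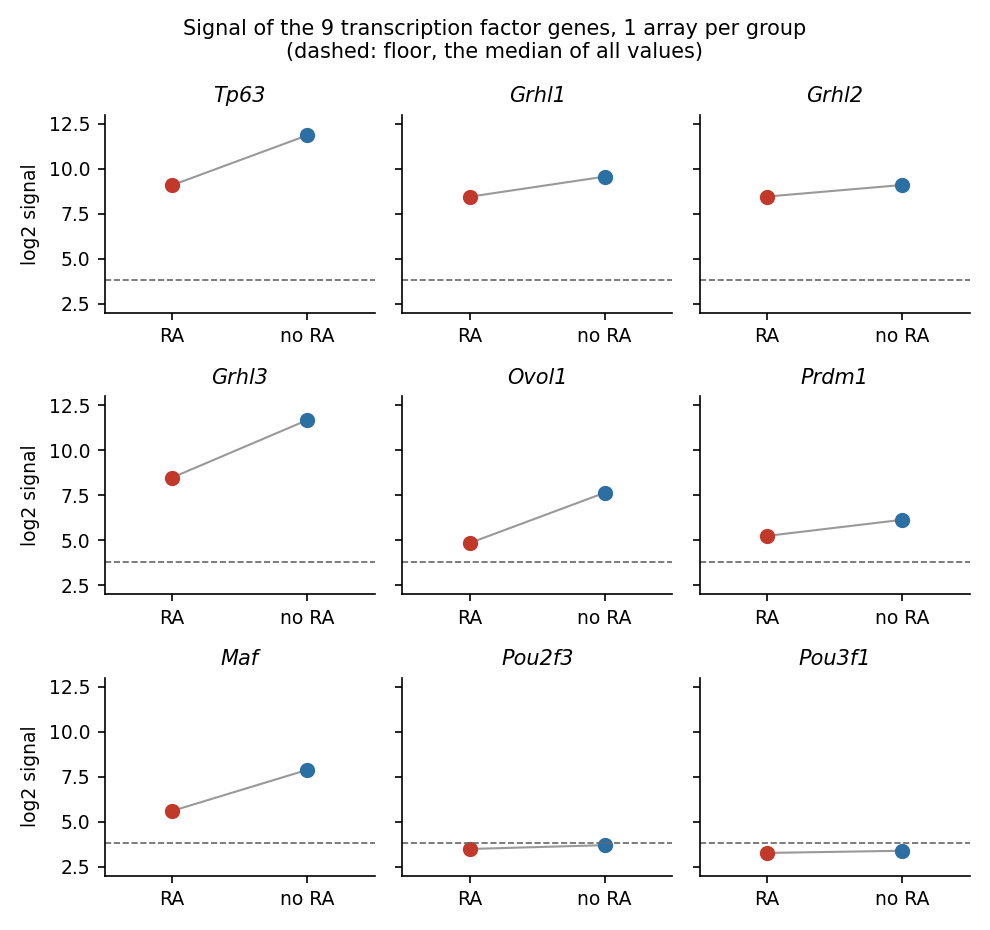
Log2 signal (y axis) of each of the 9 genes on the RA array (red, left) and the array without RA (blue, right), with 1 array per group and the floor of 3.81 as a dashed line. Of the 7 genes above the floor, each has its lower point on the RA array, and both points of Pou2f3 and Pou3f1 lie under the dashed line.

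Tp63, a p53 family protein that stratified epithelia need to form, had a signal of 9.09 with RA and 11.86 without RA. The difference was -2.77, the 182nd lowest of the 14274 genes above the floor. Tp63 is read from several start sites that give a long TA form and a shorter ΔN form, the main form of basal keratinocytes, and the single probe set gives 1 value for the gene without separating them.

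The 3 grainyhead-like genes differed by unequal amounts. Grhl3, which in mice is needed for the skin barrier and for the crosslinking enzyme gene Tgm1, had a signal of 8.48 with RA and 11.67 without RA. Its difference of -3.19 was the lowest of the 9 genes and the 152nd lowest of all genes above the floor. Grhl1, which in mice acts on desmosomal cadherin genes, had 8.45 with RA and 9.57 without RA. Its difference of -1.12 passed 2-fold by little, and it was -0.96 after a lowess correction of difference on mean signal. Grhl2, a regulator of epithelial junction genes, had 8.46 with RA and 9.10 without RA, a difference of -0.64 that did not reach 2-fold. Grhl3 thus differed by more than either of its relatives, though no test of that can be had from 1 array a group.

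Ovol1 and Prdm1 act mainly as repressors. Ovol1, a zinc finger protein that in mice helps keratinocytes to stop dividing, had 4.85 with RA and 7.64 without RA, a difference of -2.79. The value with RA was close to the median of the negative controls, so the difference may be smaller than the true one. Prdm1 (Blimp1), a zinc finger repressor that in mice acts in the last steps toward the cornified layer, had 5.24 with RA and 6.14 without RA. Its difference of -0.89 did not reach 2-fold.

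Maf, a leucine zipper factor that in human keratinocytes promotes differentiation, had 5.59 with RA and 7.87 without RA, a difference of -2.28.

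Neither POU factor gave a signal that could be read. Pou2f3 (Skn-1a), which in mice acts in suprabasal keratinocytes and also specifies chemosensory tuft cells, had 3.48 with RA and 3.69 without RA. Pou3f1 (Oct-6), known in both keratinocytes and Schwann cells, had 3.26 with RA and 3.38 without RA. Both lay below the medians of the negative controls on either array, and no difference is read from them.

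Control probe sets were read beside the members. The central 95% of the differences of 399 probe sets named as positive controls ran from -1.72 to 2.14, and that of 1153 negative controls from -2.17 to 2.01. Of the positive controls, 61 (15.3%) were at least 2-fold lower and 50 higher. Of the negative controls, 181 (15.7%) were lower and 137 higher. The lower share over all genes above the floor was 5.63%, so whether these ranges hold for genes is not known. Grhl3, Ovol1, Tp63 and Maf lay below both ranges, while Grhl1, Prdm1 and Grhl2 lay within them. The central 95% of the differences of the 92 spike sequences, most of them dim, ran from -0.43 to 0.25, and 0 were at least 2-fold lower or higher.

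**Figure D2:**
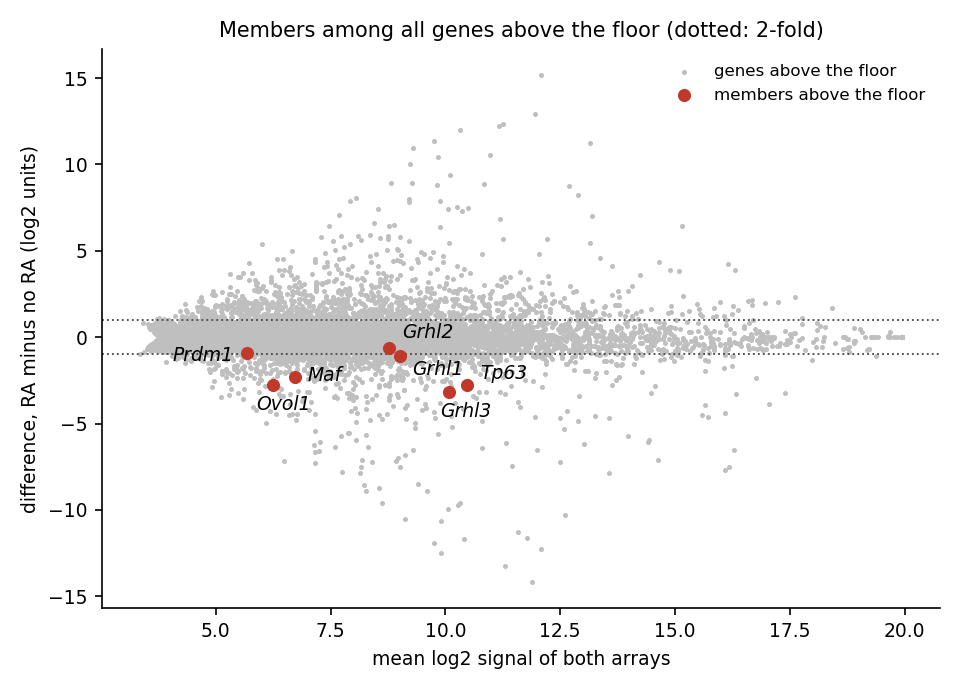
Difference between the RA array and the array without RA (y axis, log2 units) against the mean log2 signal of both arrays (x axis) for the 14274 genes above the floor (grey) and the 7 members among them (red, named). All 7 lie below 0, and Grhl3, Ovol1, Tp63 and Maf lie between -3.19 and -2.28, well under the dotted 2-fold line.

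Promoter windows of 250 bases before to 50 bases after a gene's start were taken from RefSeq, assembly GRCr8, and 5 members matched: Tp63, Grhl1, Grhl3, Maf and Prdm1. Grhl1 had 4 windows, with starts 0, 1, 239 and 20364 bases inside the outer end of the gene, so all but the last overlap. In all, 8 windows were read, not all of them separate sequence. Those of Grhl3, Tp63 and Maf are shown because these genes were at least 4-fold lower with RA, and their base composition is far from alike. Each is written 5′ to 3′ on the strand of its gene, all of them on the minus strand, and capitals mark CpG dinucleotides. The Grhl3 window is chr5:153089841-153090140, that of Tp63 is chr11:88554128-88554427 and that of Maf is chr19:60621307-60621606.
Grhl3: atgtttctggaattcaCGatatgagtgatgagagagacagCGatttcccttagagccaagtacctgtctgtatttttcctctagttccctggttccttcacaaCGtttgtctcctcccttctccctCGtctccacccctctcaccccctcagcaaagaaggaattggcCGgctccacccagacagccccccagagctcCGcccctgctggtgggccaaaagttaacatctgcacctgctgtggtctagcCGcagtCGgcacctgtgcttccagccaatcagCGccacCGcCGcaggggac
Tp63: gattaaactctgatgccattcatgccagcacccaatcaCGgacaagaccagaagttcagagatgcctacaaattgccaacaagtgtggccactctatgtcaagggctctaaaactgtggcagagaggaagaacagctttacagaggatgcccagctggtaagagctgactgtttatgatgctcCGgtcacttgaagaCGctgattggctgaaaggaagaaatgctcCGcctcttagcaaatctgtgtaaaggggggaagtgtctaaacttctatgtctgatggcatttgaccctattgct
Maf: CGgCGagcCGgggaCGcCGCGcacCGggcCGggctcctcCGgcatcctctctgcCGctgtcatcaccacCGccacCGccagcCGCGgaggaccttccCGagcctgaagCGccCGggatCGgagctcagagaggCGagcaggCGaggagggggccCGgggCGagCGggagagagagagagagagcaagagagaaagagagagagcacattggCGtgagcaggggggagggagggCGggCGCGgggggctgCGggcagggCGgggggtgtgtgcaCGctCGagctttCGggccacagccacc

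The Maf window holds 32 CpG dinucleotides at 73.3% G and C, the Grhl3 window 11 at 56.7% and the Tp63 window 4 at 47.0%. The median over all 33469 windows of the table is 7 CpG dinucleotides and 51.7% G and C. The Prdm1 window holds 22, and the 4 windows of Grhl1 hold between 8 and 47. The Tp63 start lies 366 bases inside the outer end of a gene of 210897 bases, on the side of the long form. Which start gave the signal of a gene was not measured. The 8 windows were searched on both strands for the letters of 9 motifs, and none was found in any of them. These were the RA response elements DR1, DR2 and DR5 (direct repeats of the nuclear receptor motif at different spacings), in 0.233%, 0.170% and 0.382% of all windows, and the grainyhead motif AACCGGTT, in 0.173%. The p63 core (CATG, any 6 bases, CATG) occurred in 0.457% of all windows, the octamer ATGCAAAT of POU factors in 1.78%, the Maf motif (TGCTGA, any 1 base, TCAGCA) in 0.0060%, AGTGAAAG for Prdm1 in 1.46% and CCGTTA for Ovol proteins in 2.93%. With motifs this rare, no match in 8 windows says only that these letters are not there.

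The relatives of the members within their protein families were read in the same way. Of 18 relatives, 16 had a probe set of their own and 13 were above the floor, of which 1 was at least 2-fold lower, 0 were higher and 12 were within 2-fold. Over all genes above the floor 86.5% were within 2-fold, so the relatives' share is near that of genes at large. The median difference of the 13 relatives above the floor was 0.092, the value of Pou3f3, and it was -0.042 with the floor at the 75th percentile. Ovol3, Maff, Pou3f3 and Pou3f4 lay under the medians of the negative controls on both arrays, and no difference is read from them, which leaves 9 relatives, 8 of them within 2-fold. The lower one was Tp73, the p53 family relative of Tp63, with 5.34 with RA and 7.39 without RA, a difference of -2.05. Tp63 and Tp73 have related sequences, and shared probe signal was not tested.

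The other 12 relatives above the floor, including those from which no difference is read, lay between -0.41 and 0.51. In the grainyhead superfamily, Tfcp2, Ubp1 and Tfcp2l1 differed by -0.41, -0.40 and 0.51. Ovol2, which like Ovol1 represses mesenchymal genes, had 5.25 with RA and 5.32 without RA, and Ovol3 had 3.87 with RA and 3.65 without RA. Of the large Maf proteins, Mafa differed by 0.10, and the small Maf proteins Mafg and Mafk by 0.19 and -0.042, while Maff had 3.87 with RA and 3.78 without RA. Pou2f1 (Oct-1), the widely expressed octamer protein, had 7.19 with RA and 6.70 without RA. Pou3f3 had 4.32 with RA and 4.23 without RA, Pou3f4 had 4.28 on both arrays, and Nrl, Pou2f2 and Pou3f2 were under the floor on both arrays. The count of 1 lower and 0 higher held after centring the arrays, after lowess and after quantile normalization.

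**Figure D3:**
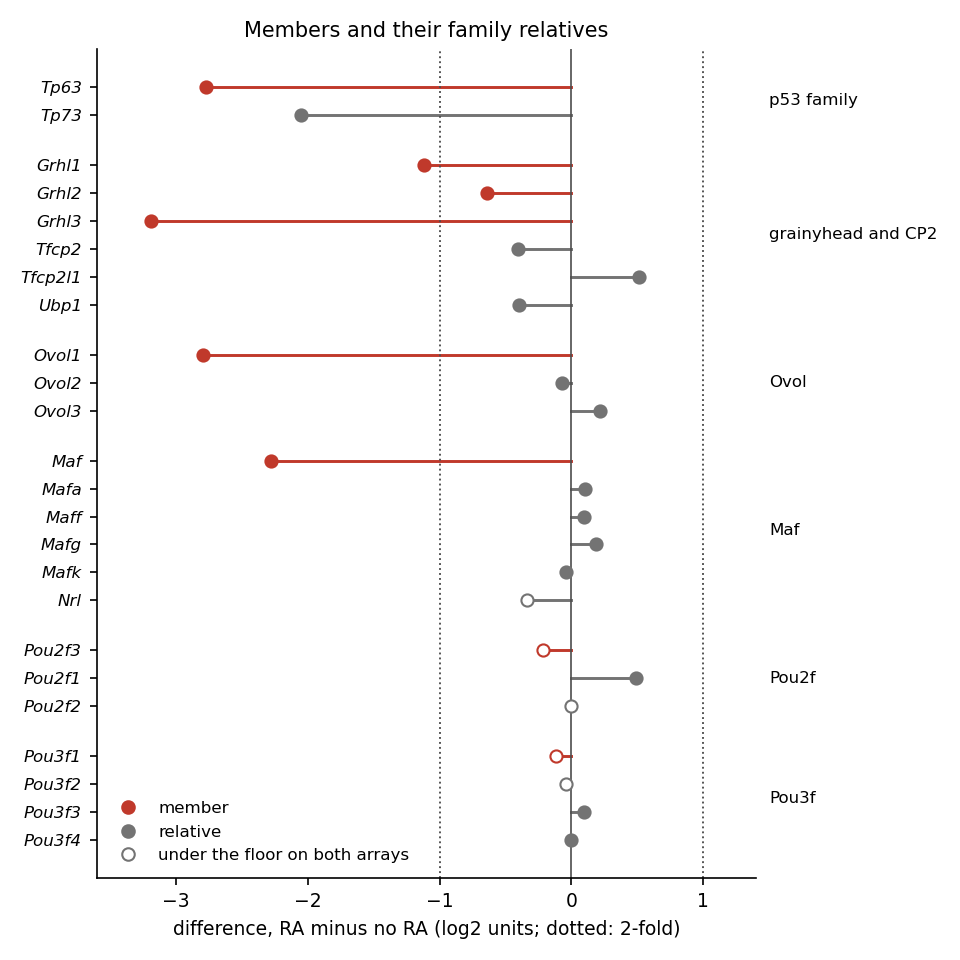
Difference between the RA array and the array without RA (x axis, log2 units) for the members (red) and their family relatives (grey), grouped by protein family, with open circles for genes under the floor on both arrays and dotted lines at 2-fold. Tp73 at -2.05 is the only relative beyond a dotted line, and the other relatives above the floor lie between -0.41 and 0.51.

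Other transcription factors known to act in the epidermis were also lower more often than higher. Of 15 listed, 13 had a probe set and reached the floor. Of these, 6 were lower by at least 2-fold and 1 was higher, with a median of -0.91. Over all genes above the floor 5.63% were lower and 7.88% higher, and these shares stand beside the counts of the later lists too. The lists were put together with earlier results of these data known, so the counts are no test. Cebpa, a factor of the suprabasal layers, had 6.96 with RA and 10.58 without RA, and Klf4, needed for the barrier in mice, differed by -2.66. Dlx3, a homeobox factor of the granular layer, differed by -2.40. The higher one was Elf3, an epithelial ETS factor, with 14.22 with RA and 6.77 without RA. After lowess 5 of the 13 were lower.

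Genes that p63 is known to act on did not all share the direction of Tp63. Of 19 listed, 15 had a probe set and 14 were above the floor, with 7 at least 2-fold lower, 2 higher and a median of -1.46. Krt14, the keratin of basal cells, had 12.25 with RA and the highest value of the scale, 19.93, without RA, so its difference of -7.68 is a lower limit of its size. Col17a1, a hemidesmosomal collagen, had 6.71 with RA and 11.96 without RA, and Dsc3, a desmosomal cadherin, 13.34 with RA and 17.84 without RA. Itga3, an integrin subunit of the basal surface, had 15.88 with RA and 10.41 without RA. The other higher gene, the envelope protein gene Evpl, named after its value was seen, differed by 1.29.

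Known targets and partners of grainyhead-like proteins were split. All 14 listed genes were above the floor, with 4 at least 2-fold lower, 4 higher and a median of -0.48. After lowess or quantile normalization 3 were lower and 5 higher, and the median was -0.21 after lowess. Dsg1, a desmosomal cadherin and a target of Grhl1 in mice, had 4.58 with RA and 16.25 without RA, and the cornified envelope gene Ivl differed by -4.11. The tight junction genes Cldn3 and Cldn4, the second a known target of Grhl2, were higher. Cldn3 had 9.42 with RA and 4.89 without RA, and Cldn4 had 18.27 with RA and 14.05 without RA.

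Genes that Ovol or Prdm1 proteins are known to repress did not share a direction. Of 9 listed genes 7 were above the floor, with 1 higher, 1 lower and a median of -0.22. Zeb2 and Twist1 lay under the medians of the negative controls on both arrays and Zeb1 close to them, so no difference is read from these genes. With the floor at the 75th percentile 4 genes were left, 1 of them higher and 1 lower. Over all genes above the main floor 86.5% were within 2-fold. Id2, an inhibitor of differentiation that Ovol1 represses in mice, had 17.07 with RA and 8.29 without RA. Snai2, a zinc finger repressor of basal keratinocytes, had 9.63 with RA and 14.25 without RA. Myc, a driver of growth that both Ovol1 and Prdm1 are known to repress, differed by -0.52, and the mesenchymal filament gene Vim differed by 0.34. Beside the lower Ovol1 signal with RA, Id2 was higher, Snai2 was lower and Myc was within 2-fold. A link of any of these to Ovol1 was not tested.

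Genes made in terminally differentiated keratinocytes differed the furthest. All 10 listed genes reached the floor. Of them 9 were at least 2-fold lower, 0 were higher and the median difference was -5.64. After lowess or quantile normalization 8 were lower. Tgm3, at 3.87 with RA and 4.11 without RA, lay under the medians of the negative controls on both arrays, so no difference is read from it. Ivl and Tgm1 are also in the list of grainyhead-like targets and partners. By the values as deposited, the 4 with the largest differences were the suprabasal keratins Krt1 and Krt10 at -14.20 and -11.65, the cornified layer adhesion gene Cdsn at -11.25 and the envelope precursor Sprr1b at -7.52. Krt1 with RA, at 4.78, was close to the median of the negative controls, and Sprr1b without RA, at 19.92, was close to the end of the scale, so both differences may be smaller than the true ones and their order is uncertain. Tgm1, which Grhl3 acts on in mice, had 10.63 with RA and 13.17 without RA. These lists were put together with earlier results of these data known, so their direction is no separate support.

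**Figure D4:**
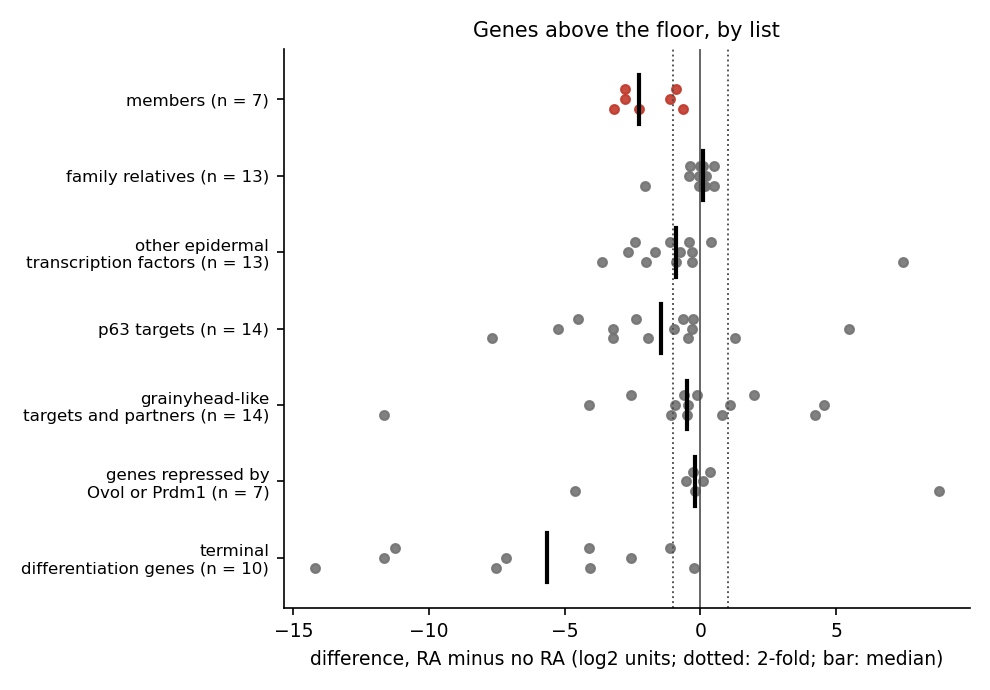
Difference with RA less without RA (x axis, log2 units) of each gene above the floor, by list, with a black bar at the median and dotted lines at 2-fold. The members (red) have a median of -2.28, their family relatives 0.092 and the terminal differentiation genes -5.64. Among the family relatives shown, 4 lay under the medians of the negative controls on both arrays, as did Zeb2, Twist1 and Tgm3 in other lists.

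Marker genes were read to see which cells the arrays held. Of 8 keratinocyte markers 7 were above the floor, 4 of them at least 2-fold lower with RA and 0 higher. After lowess 4 were lower and 1 was higher. The summed signal of the markers had a log2 of 19.76 with RA and 21.16 without RA. The 4 lower markers were Krt14 and Col17a1, given above, Sfn, a 14-3-3 protein of keratinocytes, at -3.84, and Perp, a desmosomal protein, at -3.24. Of these 4, all but Sfn are also in the list of p63 targets, so they are no separate reading. The other 3 markers were within 2-fold as deposited. Of these, Krt15, a basal keratin, had 19.65 with RA and 19.60 without RA, both near the end of the scale, where a difference can be hidden. Of 50 markers of 7 other cell types 46 had a probe set and 17 were above the floor, with 1 lower and 1 higher. That is near the shares over all genes above the floor, 5.63% lower and 7.88% higher. Several members are also made by such cells. The 10 tuft cell markers (Pou2f3 cells) had a summed log2 signal of 6.91 with RA and 6.98 without RA, and the 4 measured of 6 Schwann cell markers (Pou3f1 cells) 6.18 on both arrays. For the immune cells that make Prdm1 and Maf, the 5 measured B and plasma cell markers summed to 5.92 with RA and 5.98 without RA. All tuft, B and plasma cell markers measured lay under the medians of the negative controls on both arrays. Of the Schwann cell markers only Egr2 lay above them on both arrays. Like sums therefore do not show like amounts of these cells. Of 9 macrophage and T cell markers only Cd68 and C1qa were above the floor. The 9 summed to 11.50 with RA and 8.71 without RA, and Cd68 alone had 11.31 with RA and 5.41 without RA, while C1qa differed by -0.059. The pan-leukocyte gene Ptprc was under the floor on both arrays. Fibroblast markers summed to 6.66 with RA and 7.68 without RA, of which Col3a1 was lower by 2.13. Col1a1 and Col1a2 lay under the medians of the negative controls on both arrays, and the rest were under the floor. The sums thus rest on Col3a1 and do not show the amount of fibroblasts, whose part in the Maf difference was not tested.

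The genes whose values on both arrays lay nearest to each lower member were found by the straight-line distance over the 2 log2 values, which with 2 arrays describes position only. Nearest to Tp63 were Mbnl1 at a distance of 0.16 and Sgpp1 at 0.47. Nearest to Grhl3 were Adtrp at 0.29 and Tuft1 at 0.41, and nearest to Grhl1 were Bag3 at 0.034 and Mybbp1a at 0.072. Ovol1 had Slc19a3 at 0.087 and Sdr9c7 at 0.22, and Maf had Klk13 at 0.18 and Cxcr2 at 0.20. Within 0.25 units there were 28 other genes around Grhl1, 3 around Ovol1, 2 around Maf, 1 around Tp63 and 0 around Grhl3.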

How the data were processed

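Total RNA was labelled with biotin by a whole-transcript kit and put on 2 GeneChip arrays, per the labels' protocols. The authors deposited log2 values of 70580 probe sets for either array. The submitters' processing notes name RMA (background correction, normalization and probe summary) and Transcriptome Analysis Console, and the log2 scale was inferred from the range of the values. Versions and a genome build are not given in the sources used here.

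Of the probe sets, 23446 had 1 gene symbol in the platform annotation, and only these were used, which set aside 505 with several symbols and 46629 with none. Symbols were updated by Entrez ID against RefSeq, assembly GRCr8, where 22077 matched. A gene with several probe sets took the one with the highest mean, and each member had 1. Differences, counts at 2-fold and medians were computed with Python 3.11.15, numpy 2.4.6, pandas 2.3.3 and statsmodels 0.14.6, and the counting was tested on simulated data. The number of arrays limits the precision. Members and gene lists were chosen with earlier results of these data known. Named were all members and relatives, the 4 genes with the largest absolute difference in each other list, and the 2 genes nearest each lower member. Evpl, Tgm1, Tgm3, Krt15, Ptprc, Zeb1, Zeb2 and Twist1 fall outside this rule and were named after their values were seen. Alternatives were median centring, lowess (span 0.2), quantile normalization, averaging over probe sets, values raised to the floor, no floor, a floor of 5.45 (75th percentile), and 1.5-fold and 4-fold thresholds.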

Additional observations from a re-analysis of the deposited data

How the results depend on the processing

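The count of 5 members lower and 0 higher held in every alternative but 3. It was 4 lower after lowess, which left Grhl1 at -0.96, 4 at the 4-fold threshold and 7 at 1.5-fold. Across the alternatives Grhl3 ran from -3.19 to -2.95, Tp63 from -2.78 to -2.48, Ovol1 from -2.79 to -2.71, Maf from -2.28 to -2.20, Grhl1 from -1.18 to -0.96, Prdm1 from -0.89 to -0.82 and Grhl2 from -0.72 to -0.50. Pou2f3 and Pou3f1 were at 0 with values raised to the floor. Lowess moved the median of all genes above the floor by 0.101, to 0.075, and the higher share of all 2-fold genes to 69.3%, against 58.3% as deposited. Over all genes 1980 were higher and 1757 lower at 1.5-fold, and 435 and 285 at 4-fold, beside 1125 and 804 at 2-fold. The median of the grainyhead-like targets was -0.21 after lowess and -0.30 with the higher floor, against -0.48. That of the genes Ovol or Prdm1 proteins repress was -0.041 with no floor and -0.087 with the higher floor, against -0.22, and that of the relatives was 0 with no floor. The median of the p63 targets was -0.98 with no floor, where 1 more gene entered the list, and that of the family relatives was -0.042 with the floor at the 75th percentile, which left 7 genes. No paired analysis was possible because only 1 array stands on either side of the comparison, and for the same reason no sample could be left out.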

Other observations

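The protein-coding genes next to each member in the gene order of the RefSeq table were read after the members. Of 18 such flanking genes 16 were measured, all above the floor, with 1 at least 2-fold lower and 2 higher, and those 3 are named after their values were seen. These shares are near those of all genes above the floor, 5.63% lower and 7.88% higher. The lower one was Tprg1, a gene named for its regulation by p63, which flanks Tp63. It had 8.90 with RA and 12.44 without RA, a difference of -3.54, beside -2.77 for Tp63. P3h2 on the other side of Tp63, a collagen prolyl hydroxylase gene, had 15.06 with RA and 15.47 without RA. The higher ones were Ifnlr1, an interferon lambda receptor subunit next to Grhl3, with 7.05 with RA and 5.87 without RA, and Dynlrb2, a dynein light chain next to Maf, with 5.12 with RA and 3.96 without RA.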
